A study of Rattus norvegicus with 12 samples.

Results

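The choroid of rat pups at postnatal day 7 (P7) was compared between oxygen-induced retinopathy (OIR) and control (CTL), using the 2 libraries of that tissue and age among the 12 small RNA libraries of the series. Both libraries came from Sprague Dawley pups, an albino strain. OIR pups were kept from birth in oxygen that cycled between high and low levels and are labelled hyperoxic, and CTL pups were kept in room air and are labelled normoxic. P7 lies in the phase in which the retinal vessels degenerate in this model. Each library is 1 pool of 5 choroids, so no replicate check and no p-value could be had, and every interval below covers counting error only. Together the 2 libraries list 705 of the 750 miRNAs found in the series, 667 in CTL and 691 in OIR, with 92 piRNAs and 294 tRNA entries.

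The choroid is the vascular layer behind the retina. It holds the endothelium of its large vessels and of the choriocapillaris, the mural and connective tissue cells around them, pigment cells and resident leukocytes, and it lies between the retinal pigment epithelium and the sclera. A miRNA is cut from a hairpin precursor, one arm of which is usually loaded into the silencing complex while the other, the minor arm, is mostly degraded. Bases 2 to 8 of the mature miRNA, the seed, pair with its targets. Many miRNAs are restricted to a few cell types, so their levels in a bulk tissue follow the cells it contains. The miR-183 cluster (miR-183, miR-96 and miR-182) belongs to photoreceptors and other sensory cells, miR-9 and miR-124 to neural cells, miR-126 to endothelium, miR-143 and miR-145 to smooth muscle, miR-199a to mesenchyme, the miR-200 family to epithelium, and miR-144 and miR-451 to red cell precursors. In such a bulk sample, fewer cells of a type and less RNA per cell cannot be told apart.

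The CTL library held 15402469 reads and 10457616 miRNA UMIs, and the OIR library 16228804 reads and 9439805 miRNA UMIs. A UMI (unique molecular identifier) counts each captured molecule once, and there were 1.08 miRNA reads per UMI in both libraries. Levels are given as UMIs per 1000000 miRNA UMIs of the library (RPM). A ratio is OIR over CTL with its exact 95% counting interval, and was taken for the 612 miRNAs that reached 20 UMIs in either library. A miRNA was called higher or lower when its ratio was above 1.2 or below 0.8 and its interval excluded 1. By this rule 226 miRNAs (36.9%) were higher in OIR and 120 (19.6%) were lower, with a median log2 ratio of 0.18.

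The tissue label was first checked against cell type miRNAs. In the OIR choroid the most abundant miRNA was miR-126a-3p, as it was in all choroids at P14 and P17. In the CTL choroid at P7 it was miR-9a-5p, followed by miR-182, both of which are retinal. Over 232 miRNAs, the CTL choroid was closer to the CTL retina of the same age, with a median absolute log2 difference of 0.31 and 15 miRNAs more than 2-fold apart, than to the OIR choroid, with 0.61 and 67 miRNAs. No other retina was as close to the CTL choroid. The OIR retina at P7 was at 0.65 and 78 miRNAs from it. Later retinas were at 0.58 to 0.79, with 77 to 96 miRNAs. The OIR choroid was close to the OIR choroid at P14 (0.35 and 13 miRNAs) and far from the CTL retina (0.98 and 112 miRNAs). The miRNAs of retinal neurons therefore stood far higher in the control choroid pool at P7 than in its OIR counterpart. Many of the results below, but not all, are given beside the P7 retina, the later choroids or both. How much of any difference came with oxygen and how much with the dissection of the pools was not tested.

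The sequences of the miRNAs on which the comparison turns are shown first, grouped by the tissue they mark, since later results refer to their seeds and to their opposite strands. They were taken from RefSeq (assembly GRCr8), which matched 560 of the 612 tested entries by name, and are written 5′ to 3′ with the seed in capitals. The retinal group is the miR-183 cluster, on the minus strand of chromosome 4, and both arms of miR-9a.
miR-182: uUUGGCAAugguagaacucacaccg
miR-96-5p: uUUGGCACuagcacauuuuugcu
miR-183-5p: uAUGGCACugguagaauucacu
miR-9a-5p: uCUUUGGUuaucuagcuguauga
miR-9a-3p: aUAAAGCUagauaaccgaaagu
Endothelial, mesenchymal and smooth muscle miRNAs are the ones that a choroid would be rich in.
miR-126a-3p: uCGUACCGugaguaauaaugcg
miR-199a-3p: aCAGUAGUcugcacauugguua
miR-143-3p: uGAGAUGAagcacuguagcuca
Epithelial and red cell miRNAs had the highest ratios among the cell type lists.
miR-141-3p: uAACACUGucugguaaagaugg
miR-200c-3p: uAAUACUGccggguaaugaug
miR-203a-3p: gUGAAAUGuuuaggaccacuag
miR-205: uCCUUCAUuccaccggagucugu
miR-144-3p: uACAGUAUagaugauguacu
miR-451-5p: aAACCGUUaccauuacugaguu

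The photoreceptor and neuronal miRNAs were lower in the OIR choroid. All 5 tested members of the photoreceptor cluster were lower, with a median log2 ratio of -1.39, and so were 11 of 14 members of the neuronal list, with a median of -1.09. miR-182 stood at 113470 RPM in the CTL and 52851 RPM in the OIR choroid, a ratio of 0.466 (0.464 to 0.467). At P14 and P17 the CTL choroid held 17584 and 15898 RPM of it, and the P7 retina 129825 RPM in CTL and 181113 RPM in OIR. Both P7 choroid pools were thus above the later CTL choroids, and the CTL pool was near its retina. The other members followed, with ratios of 0.382 (0.380 to 0.384) for miR-183-5p, 0.304 (0.302 to 0.307) for miR-96-5p, 0.362 (0.327 to 0.40) for miR-183-3p and 0.509 (0.404 to 0.638) for miR-96-3p. Summed, the cluster fell from 182144 to 77278 RPM between the pools, against 26557 RPM in the CTL choroid at P14 and 23924 RPM at P17. The OIR choroid at P14 also held a high sum, 84261 RPM, so an OIR pool could also stand above the CTL choroid of its age.

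Of the neuronal list, miR-9a-5p, a regulator of neural progenitors, was at 138585 RPM in CTL and 51254 RPM in OIR, a ratio of 0.370 (0.369 to 0.371), and its other arm miR-9a-3p at 9258 and 3166 RPM, a ratio of 0.342 (0.338 to 0.346). miR-124-3p, the most specific miRNA of neurons, stood at 1985 and 668 RPM, a ratio of 0.337 (0.327 to 0.346). Both miRNAs were higher still in the CTL retina, at 178289 RPM for miR-9a-5p and 3115 RPM for miR-124-3p, and far lower in the CTL choroid at P14, at 12919 and 339.7 RPM. The remaining 3 members were not called. They were miR-128-3p at 0.930 (0.908 to 0.953), miR-218a-5p at 0.9004 (0.884 to 0.917) and miR-138-1-3p at 0.633 (0.367 to 1.07), and the first of these was nearly as abundant in the later choroids as in the retina. In the P7 retina itself the photoreceptor list had a median log2 OIR/CTL ratio of 0.35 and the neuronal list 0.14, so the retina did not show the low ratios of the choroid. That difference between the tissues was not tested.

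**Figure D1:**
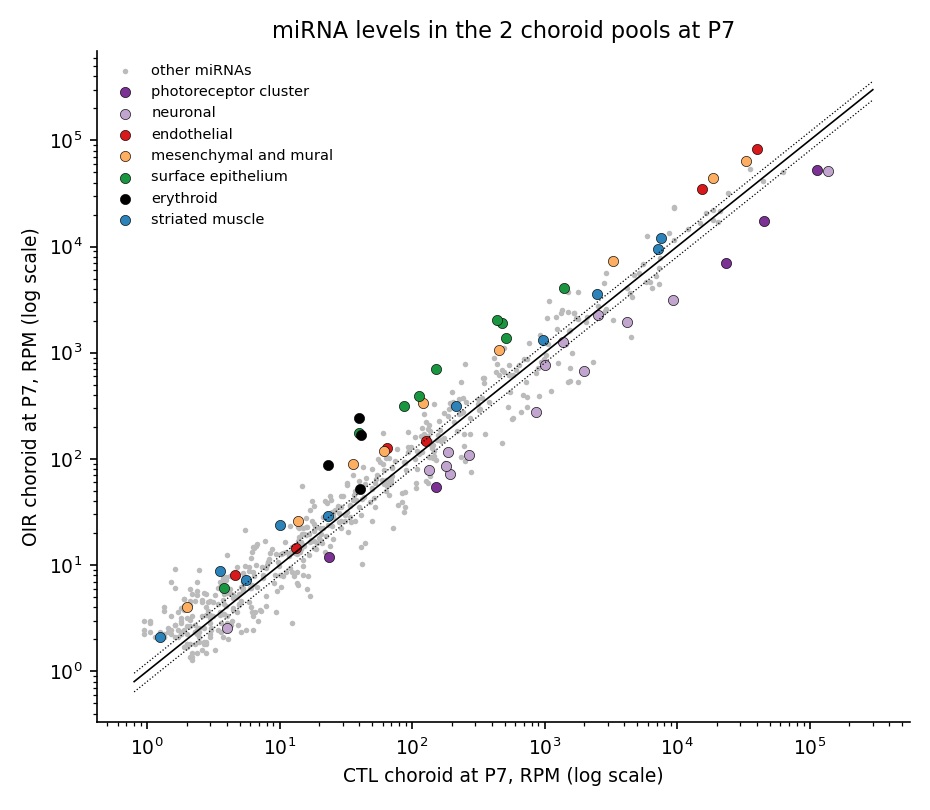
Level of each tested miRNA in the CTL (x axis) and OIR (y axis) choroid at P7, in RPM on log axes, with 1 point a miRNA coloured by cell type list. The solid line marks equal levels and the dotted lines ratios of 1.2 and 0.8. The photoreceptor and neuronal points lie below the line, miR-182 at 113470 and 52851 RPM, and the surface epithelium and erythroid points above it.

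These miRNAs weighed heavily on the scale. The 2 retinal lists took 34.3% of the miRNA UMIs of the CTL choroid and 13.9% of those of the OIR choroid, and 79.5% of the RPM lost between the pools was theirs. With levels expressed per miRNA UMI outside the 2 lists, a denominator chosen after the data were seen, every log2 ratio shifted by -0.39 and the median over all miRNAs went from 0.18 to -0.21. At 1000 RPM and above this turned 39 higher and 22 lower into 24 higher and 41 lower. The ratios below are on the scale of all miRNA UMIs unless stated, and list medians on the other scale are given beside them.

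The largest gains in RPM were those of vascular and connective tissue miRNAs. miR-126a-3p, which acts in endothelial cells on signalling by vascular growth factors, went from 40296 RPM in CTL to 83193 RPM in OIR, a ratio of 2.06 (2.06 to 2.07). The OIR level was within the range of the other choroids, 80499 to 127802 RPM, and the CTL level was below all of them. The P7 retina held 24812 RPM of it in the CTL pool and 3889 RPM in the OIR pool. The endothelial list gave 4 higher and 0 lower of 6, with a median log2 ratio of 0.89, or 0.50 outside the retinal lists. Its members that were not called were miR-221-3p at 1.16 (1.08 to 1.26) and miR-222-3p at 1.09 (0.856 to 1.39), which are also made outside endothelium, while miR-10a-5p was at 1.93 (1.76 to 2.13).

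The mesenchymal and mural list gave 9 higher of 9, with a median log2 ratio of 1.14, or 0.75 outside the retinal lists. Its members are both arms of miR-199a, miR-214, miR-143 and miR-145, and miR-10b-5p. Arms of 1 hairpin are not independent, here or in the other lists. miR-199a-3p, abundant in fibroblasts and other mesenchyme, went from 33280 to 63879 RPM, a ratio of 1.92 (1.91 to 1.93). miR-143-3p, which favours the contractile state of smooth muscle, went from 18779 to 43800 RPM, a ratio of 2.33 (2.32 to 2.35), and miR-145-5p, cut from the neighbouring hairpin, from 450.4 to 1059 RPM, a ratio of 2.35 (2.27 to 2.43). The later choroids held more miR-143-3p than the CTL pool at P7, at 41982 to 63147 RPM. The cartilage and sclera list, led by the chondrocyte miRNA miR-140, gave 4 higher of 4, with a median of 0.98, or 0.59 outside the retinal lists. miR-455-3p, also of cartilage, had the highest ratio in it, 2.88 (2.63 to 3.16), at 60.3 and 174 RPM.

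Leukocyte miRNAs gave 6 higher of 6, with a median log2 ratio of 1.11, or 0.72 outside the retinal lists. miR-142-5p, common to all blood cell lineages, had the highest ratio among them, 3.15 (3.01 to 3.29), at 249 and 785 RPM. miR-223-3p, of neutrophils and monocytes, was at 499 and 1113 RPM, a ratio of 2.23 (2.16 to 2.31). The lymphocyte miRNA miR-150-5p gave the lowest ratio of the list, 1.45 (1.35 to 1.55). miR-142-3p stood at 1511 RPM in the CTL pool and at 3710 RPM in the OIR pool. The later choroids ranged from 2310 to 3250 RPM, so that the OIR pool lay above all of them and the CTL pool below.

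**Figure D2:**
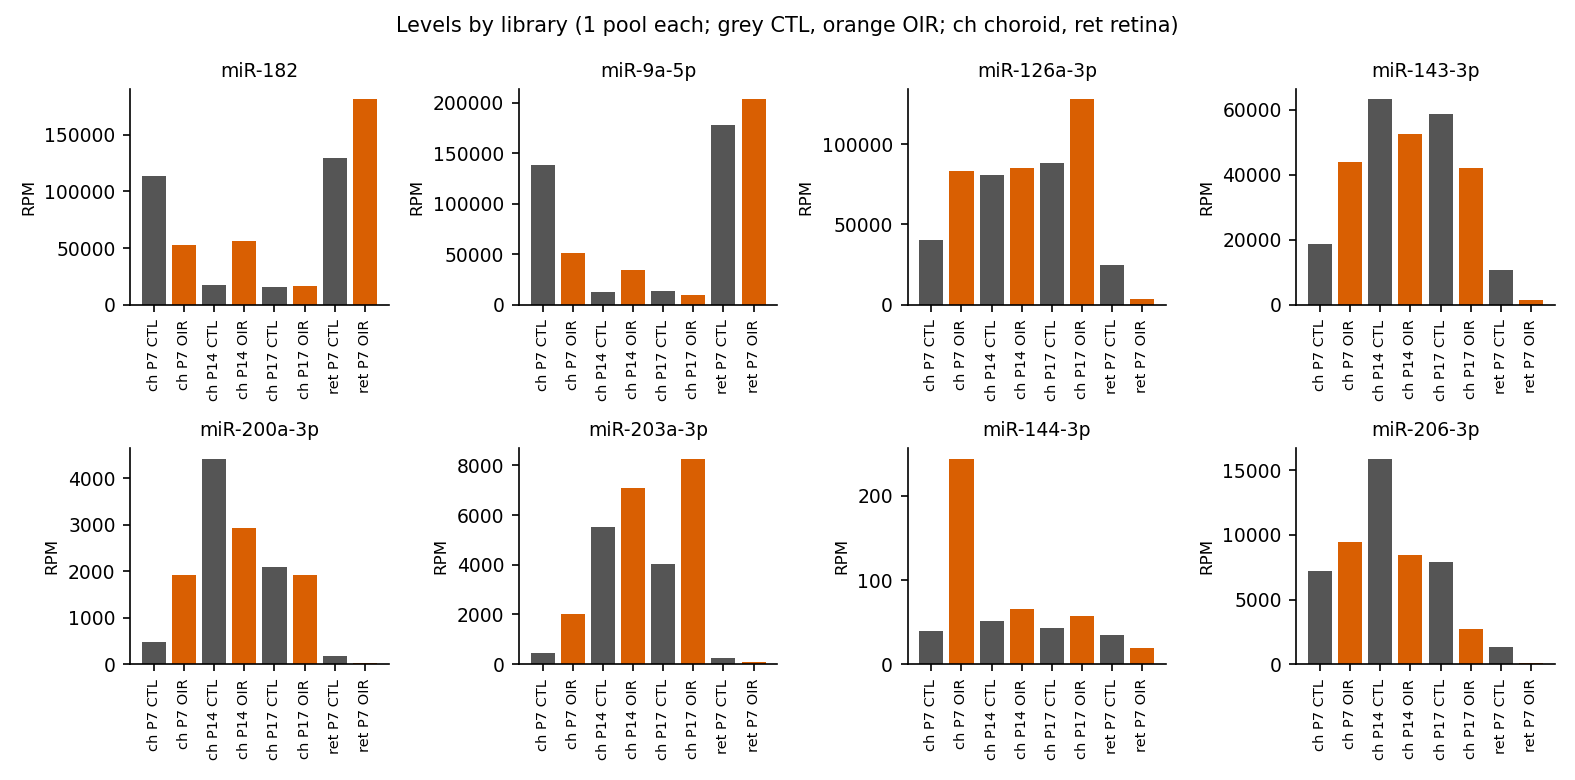
RPM of 8 miRNAs in the 6 choroid libraries and the 2 P7 retina libraries, CTL in grey and OIR in orange, 1 bar a library with no error bar since each is 1 pool. miR-182 and miR-9a-5p stand between the retinas and the later CTL choroids in both P7 choroid pools, with miR-182 in the OIR choroid at P14 at 56227 RPM, and miR-144-3p is highest in the OIR choroid at P7, at 244 RPM.

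The surface epithelium list, which holds miRNAs of cornea, lens, skin and conjunctiva, gave 9 higher of 9 and, with a median log2 ratio of 1.86, was among the 2 lists with the highest medians. Outside the retinal lists the median was 1.47. miR-203a-3p, which limits stemness in stratified epithelium, went from 436 to 2020 RPM, a ratio of 4.64 (4.49 to 4.79). miR-141-3p went from 151 to 701 RPM with the same ratio (4.39 to 4.91), and miR-200c-3p, cut from the neighbouring hairpin, from 39.9 to 174 RPM, a ratio of 4.37 (3.92 to 4.88). The miR-200 family keeps epithelial cells from turning mesenchymal, and its other members miR-200a-3p, miR-200b-3p and miR-429 had ratios of 4.01 (3.88 to 4.13), 3.64 (3.38 to 3.92) and 3.44 (3.22 to 3.68). The corneal miRNAs miR-184 and miR-205 were at 2.92 (2.87 to 2.98) and 2.69 (2.60 to 2.77). miR-203b-3p was the lowest of the list, at 1.58 (1.04 to 2.43), with 40 and 57 UMIs. The summed list stood at 3219 RPM in CTL and 10989 RPM in OIR, while the later choroids ranged from 15246 to 27680 RPM. Both P7 pools were therefore below every later choroid, and the CTL retina, at 2127 RPM, was below both. How much non-choroidal epithelium was taken with each pool was not tested.

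The erythroid list had the highest median, 1.98, or 1.59 outside the retinal lists, with 4 higher of 4. All but miR-486 come from the neighbouring hairpins of miR-144 and miR-451. miR-144-3p had the highest ratio of all miRNAs, 6.12 (5.51 to 6.805), standing at 39.97 RPM in CTL and 244 RPM in OIR. Its other arm miR-144-5p was at 41.0 and 169.7 RPM, a ratio of 4.14 (3.72 to 4.61), and miR-451-5p, which is cut by Argonaute without Dicer, at 23.2 and 87.0 RPM, a ratio of 3.74 (3.24 to 4.34). In the other 4 choroids miR-144-3p ranged from 43.2 to 65.2 RPM, so the OIR pool at P7 stood alone and the CTL pool was close to the rest. miR-486, also of red cells but made in muscle too, differed least, at 40.6 and 52.0 RPM, a ratio of 1.28 (1.12 to 1.46). The P7 retina went the other way for this list, with a median of -0.75. The amount of blood in each pool was not tested.

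Striated muscle miRNAs, which can enter a choroid sample with the extraocular muscles, gave 8 higher of 10 with a median log2 ratio of 0.55, or 0.16 outside the retinal lists. miR-206-3p, of skeletal muscle, stood at 7225 and 9463 RPM, a ratio of 1.31 (1.30 to 1.32), and miR-1b at 7537 and 12091 RPM, a ratio of 1.60 (1.59 to 1.62). Reads of miR-133a-3p and miR-133b-3p were counted in 1 entry, with a ratio of 1.36 (1.32 to 1.39). In the P7 retina miR-206-3p was at 1319 RPM in CTL and 108 RPM in OIR, so both choroid pools held far more of it than either retina. The pigment epithelium list gave 3 higher of 4 with a median of 0.49, or 0.10 outside the retinal lists. miR-204-5p, which maintains pigment epithelium, was at 12032 and 14727 RPM, a ratio of 1.22 (1.21 to 1.23), and its paralogue miR-211-5p at 1661 and 2385 RPM, a ratio of 1.44 (1.41 to 1.46).

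The remaining lists are families and clusters that are not tied to 1 cell type. miR-210-3p, the miRNA most regularly induced by hypoxia, was lower in OIR, at 687 and 401 RPM, a ratio of 0.584 (0.561 to 0.607), and the CTL retina held 1023 RPM of it. Summed over both arms, miR-210 stood at 693 RPM in the CTL and 405 RPM in the OIR choroid at P7. At P14 and P17 the CTL choroids held 217 and 134 RPM and the OIR choroids 422 and 364 RPM. The OIR pool at P7 was thus above the later CTL choroids. The let-7 family, which rises as cells differentiate, gave 2 higher and 2 lower of 9, with a median log2 ratio of -0.26, or -0.64 outside the retinal lists. The higher members were let-7i-5p, with a ratio of 1.31 (1.30 to 1.32), and let-7c-5p, with 1.26 (1.26 to 1.27). Lower were let-7g-5p at 0.734 (0.725 to 0.742) and miR-98-5p at 0.769 (0.738 to 0.8004). The let-7 sequences differ by few bases, so their counts may share reads. Of the miR-30 family 1 of 5 was higher, with a median log2 ratio of 0.13 that turned to -0.10 when scaled to total reads and to -0.26 outside the retinal lists.

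The miR-17 and related clusters, which drive proliferation, gave 0 higher and 5 lower of 9 with a median of -0.39, or -0.78 outside the retinal lists. The lowest was miR-92a-3p at 735 and 311 RPM, a ratio of 0.423 (0.405 to 0.442), followed by miR-93-5p at 0.610 (0.603 to 0.617), miR-20a-5p at 0.617 (0.601 to 0.632), miR-25-3p at 0.625 (0.617 to 0.632) and miR-19b-3p at 0.763 (0.754 to 0.772). All 5 were more abundant in the CTL retina than in the CTL choroid. Of the miR-29 family, repressors of collagen and other matrix genes, miR-29a-3p at 2.03 (1.99 to 2.08) and miR-29b-3p at 2.13 (2.02 to 2.24) were higher and miR-29c-3p at 0.856 (0.841 to 0.871) was not called, and the median of the 3 was 1.02, or 0.63 outside the retinal lists. miR-29a-3p stood at 1041 and 2118 RPM here and at 5804 to 8588 RPM in the later choroids, so both P7 pools were far below those. Of the imprinted Dlk1-Dio3 cluster, 15 members were on the list, with 6 higher and 0 lower and a median log2 ratio of 0.20 that turned to -0.02 on total reads and -0.19 outside the retinal lists. miR-379-5p led the list at 2901 and 5588 RPM, a ratio of 1.93 (1.90 to 1.95). Over all 55 tested miRNAs of the hairpins at chr6:134543445-134579838, 21 were higher and 3 lower. These include the list members except miR-127-3p, miR-434-3p, miR-376b-3p and miR-485-5p. Over all miRNAs 36.9% were higher and 19.6% lower, so the share that was higher here was close to that of all. The share that was lower, 3 of 55, was smaller than that of all.

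The levels of 3 pools were then set against each other to ask how far retinal miRNAs in the CTL pool account numerically for these ratios. For each member of the 2 retinal lists with at least 100 UMIs in each library, the share of CTL retina was computed that, added to the OIR choroid, gives the CTL choroid level. Over 18 members the median share was 58.3%. For miR-128-3p and miR-138-2-3p, whose levels hardly differ between the CTL retina and the OIR choroid, the calculation has no meaning as a share, and gave -545% and -823%. For the 14 members that differ at least 2-fold between retina and OIR choroid it was 59.6%, from 40.9% for miR-96-3p to 88.2% for miR-129-5p, a neuronal miRNA. miR-182 gave 78.8%, miR-9a-5p 68.7% and miR-124-3p 53.8%, so the members did not agree on 1 value. With the OIR retina as the reference the median was 45.5%. Hairpin precursor reads made up 0.328% of reads in the CTL choroid, 0.120% in the OIR choroid, 0.408% in the CTL retina and 0.0384% to 0.0764% in the later choroids. They are a class total without a division by miRNA. Hairpins of the listed miRNAs may be among them, so they are not known to be apart from the lists. They gave a share of 72.0% by the same calculation, but per total reads and not per miRNA UMI. Per total reads the median share of the list members was 0.684. These shares are arithmetic on single pools and not a measured tissue content. The 2 retina references also differ in miRNAs of the choroid, with miR-199a-5p at 2004 RPM in the CTL and 40.5 RPM in the OIR retina. The P7 CTL retina stood apart here, with a mesenchymal and mural sum of 28612 RPM against 1941 to 6461 RPM in all other retinas. Its endothelial sum was 35009 RPM (5704 to 19438 RPM in the others) and its striated muscle sum 4141 RPM (449 to 741 RPM). Its surface epithelium sum, 2127 RPM, lay within the range of the others, 698 to 2498 RPM. Beyond the use of the OIR retina, the effect of this on the shares and the mixture was not tested.

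A mixture of the OIR choroid with 58.3% of CTL retina was closer to the CTL choroid than the OIR choroid alone. Without the members of the 2 lists, 593 miRNAs could be compared. Of these, 415 had an OIR/CTL ratio past 1.2 or 0.8, and 182 had a mixture/CTL ratio past the same limits, 146 above (24.6%) and 36 below (6.07%). At 100 RPM and above, where counting error was small, the numbers were 135 of 199 before and 46 after. Under 10 RPM they were 164 of 213 and 106. Added over miRNAs outside the 2 lists, the absolute difference from CTL was 308501 RPM for the OIR choroid and 75613 RPM for the mixture. The 2 lists held 342918 RPM in the CTL and 139382 RPM in the OIR choroid, and RPM sum to a fixed total. Matching the lists therefore narrows the summed difference outside them, and shifts the ratios there, partly by construction. How much of the narrowing goes beyond this was not tested. The choice of reference mattered for the low side, where 77 in place of 36 fell below 0.8 with the OIR retina.

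What the mixture left was unequal between cell types. The mixture keeps a fixed part of each OIR choroid level. High starting ratios therefore stay high, and miRNAs scarce in the retina with ratios near 1 fall below 1, partly by construction. How much of the order below goes beyond this was not tested. Surface epithelium kept a median mixture/CTL ratio of 1.76, with 9 of 9 members above 1.2, miR-203a-3p at 2.27 and miR-141-3p at 2.21. Erythroid miRNAs kept 2.07, with miR-144-3p at 3.06, miR-144-5p at 2.13, miR-451-5p at 2.00 and miR-486 at 0.95. Mesenchymal and mural miRNAs kept 1.30, cartilage and sclera 1.32, leukocytes 1.24 and endothelium 1.08. Pigment epithelium came to 1.00, with miR-204-5p at 0.996, and striated muscle to 0.965. The muscle miRNAs of highest level lay below 1, miR-206-3p at 0.653, miR-1-3p at 0.713 and miR-1b at 0.809. Of the miRNAs outside the 2 retinal lists that were low in OIR, miR-210-3p came to 1.11, miR-92a-3p to 0.867 and miR-93-5p to 0.965. These too were more abundant in the CTL retina than in the CTL choroid.

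**Figure D3:**
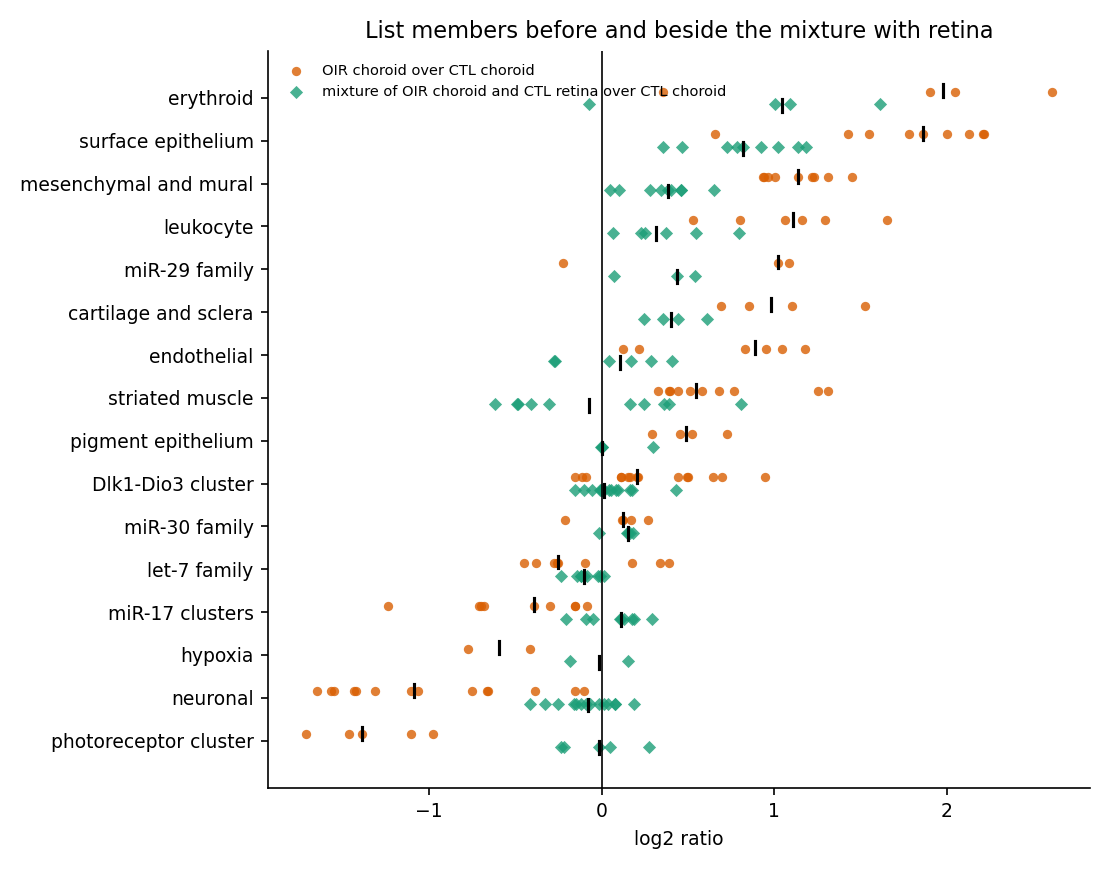
log2 ratio to the CTL choroid of each list member, for the OIR choroid (orange circles) and for the mixture of OIR choroid and CTL retina (green diamonds), with the median of each list as a black tick. Endothelial and pigment epithelium medians come close to 0 in the mixture, at 0.11 and 0.00, while surface epithelium and erythroid medians stay at 0.82 and 1.05. Of the endothelial members 2 of 6, and of the pigment epithelium members 1 of 4, stay above a ratio of 1.2. The medians of the 2 retinal lists, which set the share, lie near 0 by construction.

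The same calculation was made with older control choroids in place of the OIR choroid, which gives a share for both P7 pools. With the CTL choroid at P14 as the base and CTL retina as the reference, the CTL choroid at P7 held a median share of 67.8% over 14 members and the OIR choroid at P7 18.7%, with the members of the latter spread from -6.86% to 97.1%. With the OIR retina as the reference these medians were 54.1% and 15.5%. With the P17 choroid as the base the values were 66.5% and 19.4% over 13 members. Age differs between these pools, so a change with age and retinal material cannot be told apart in them.

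Below 1000 RPM lay 618 of the 705 miRNAs, of which 525 could be tested, with 187 higher and 98 lower. From 100 to 1000 RPM 54 of 129 were higher and 35 lower, from 10 to 100 RPM 69 of 182 were higher and 43 lower, and under 10 RPM 64 of 214 were higher and 20 lower. The median width of the interval relative to the ratio grew from 0.0297 at 1000 RPM and above to 0.118, 0.349 and 1.08 in the lower bands, so the smaller share of calls under 10 RPM comes with less precision. In that band 5 of the calls were bounds, for miRNAs not listed in CTL.

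Among the lowest ratios from 10 to 1000 RPM were miRNAs that were also high in the retina. miR-217-5p was at 42.0 RPM in CTL and 10.3 RPM in OIR, a ratio of 0.245 (0.194 to 0.306), and miR-216a-5p of the same cluster at 281 and 76.1 RPM, a ratio of 0.271 (0.249 to 0.294). The CTL retina held 48.9 and 395 RPM of them, and the CTL choroid at P14 13.7 and 30.0 RPM. Similar patterns were seen for miR-551b-3p at 0.314 (0.269 to 0.366), miR-135b-5p at 0.377 (0.349 to 0.407) and miR-598-3p at 0.412 (0.393 to 0.433), and in the mixture these 5 miRNAs came to between 0.781 and 1.13. miR-6328 departed from that pattern. It stood at 476 RPM in CTL and 143 RPM in OIR, a ratio of 0.299 (0.282 to 0.318), but at 366 RPM in the CTL retina, 60.2 RPM in the OIR retina and 875, 691, 496 and 6.72 RPM in the CTL and OIR choroids at P14 and P17, and the mixture left it at 0.573. RefSeq places its hairpin on chromosome 20.

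Under 10 RPM the highest ratios were those of minor arms and of very rare entries. miR-323-5p had 17 UMIs in CTL and 86 in OIR, a ratio of 5.60 (3.30 to 10.1), and miR-291b, of a cluster of embryonic stem cells, 16 and 65 UMIs, a ratio of 4.50 (2.57 to 8.33). The minor arm miR-200a-5p was at 3.62 (2.31 to 5.86), beside 4.01 for its abundant partner. The lowest ratio was that of miR-3085, with 129 UMIs in CTL and 27 in OIR, a ratio of 0.232 (0.147 to 0.353). Its level in the CTL retina was 16.96 RPM, above both choroid pools.

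Arms of 1 hairpin come from the same transcript, and minor arms were therefore compared with their major arms. Of 249 hairpins with both arms listed, 205 had both tested. The minor arm was higher in 74 (36.1%) and lower in 29 (14.1%), against 36.9% and 19.6% over all miRNAs. Both arms were higher in 54 hairpins and lower in 24, and 7 had opposite calls. Among the 140 hairpins with at least 100 UMIs of the minor arm, the log2 ratios of the arms correlated across hairpins with r = 0.717, a description since arms share their libraries, and in 103 they lay within 0.5 of each other. The miR-200a hairpin was among those with both arms higher.

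The 4 hairpins of this set with opposite calls were miR-323, miR-216a, miR-34b and miR-98, and both arms of miR-323 and miR-216a are shown with their seeds.
miR-323-5p: aGGUGGUCcguggcgcguucgc
miR-323-3p: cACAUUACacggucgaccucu
miR-216a-5p: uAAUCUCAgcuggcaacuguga
miR-216a-3p: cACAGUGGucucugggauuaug
miR-323-3p was lower, at 578 and 241 RPM, a ratio of 0.417 (0.397 to 0.438), while miR-323-5p was higher, so that the minor arm went from 0.281% (Wilson 95% interval 0.175% to 0.449%) to 3.64% (2.96% to 4.48%) of the hairpin's UMIs. miR-216a-3p had a ratio of 2.28 (1.69 to 3.10) against 0.271 for miR-216a-5p, and its share went from 2.23% (1.76% to 2.82%) to 16.1% (13.8% to 18.7%). In the CTL retina these shares were 0.189% and 1.77%, close to those of the CTL choroid. For miR-34b, of multiciliated cells, the share of the minor arm went from 32.2% to 59.6%, with 29.5% in the CTL retina. miR-451 went the opposite way, since miR-451-3p was at 1.19 (0.870 to 1.63) against 3.74 for miR-451-5p, and its share fell from 25.2% to 9.68%.

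**Figure D4:**
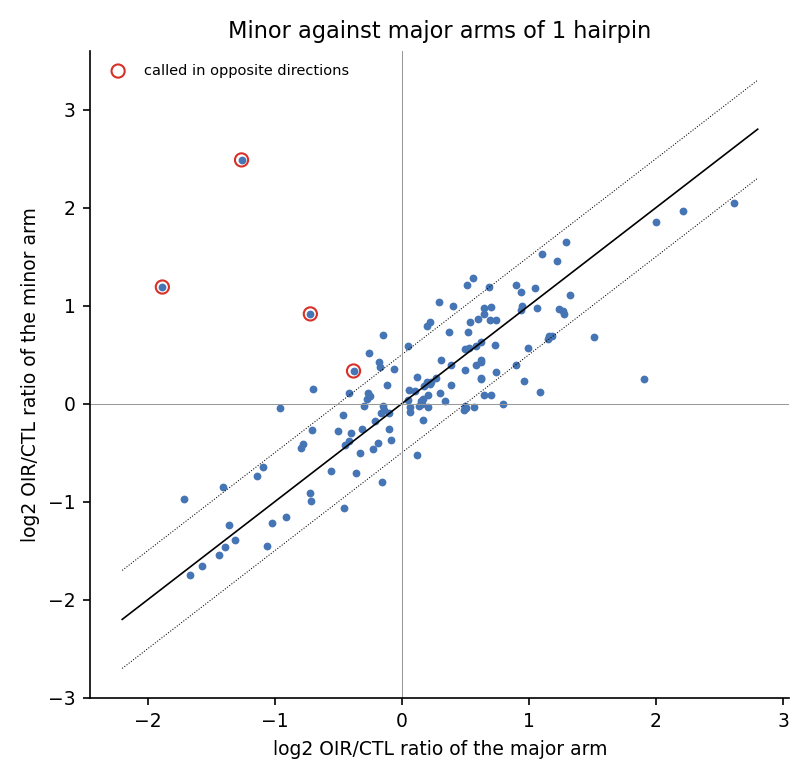
log2 OIR/CTL ratio of the minor arm (y axis) against that of the major arm (x axis) for the 140 hairpins with at least 100 UMIs of the minor arm, 1 point a hairpin. The solid line marks equal ratios, the dotted lines a difference of 0.5, and red rings the 4 hairpins with opposite calls. 103 hairpins lie between the dotted lines.

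Neighbouring hairpins did not all share a direction. In 34 groups of hairpins within 10000 bases on 1 strand of GRCr8, with at least 3 tested miRNAs each, all members were higher in 3 and lower in 1, the miR-183 cluster at chr4:59752246-59756153. Members went in both directions in 11. The 4 tested members of Mir141 and Mir200c, at chr4:159209525-159210033, included 3 that were higher. By seed, the 4 members of the miR-181 family, which share ACAUUCA and are abundant in the inner retina, were all lower, with miR-181a-5p at 2319 and 820 RPM, a ratio of 0.354 (0.345 to 0.363), and at 3186 RPM in the CTL retina. miR-148a-3p at 2.42 (2.40 to 2.44) and miR-152-3p at 2.50 (2.48 to 2.52) were higher, while miR-148b-3p of the same seed, named after its value was seen, was at 0.881 (0.866 to 0.896). A shared seed thus did not go with a shared direction in that family.

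Some entries are the reverse complement of others, a set chosen after the values were seen. In GRCr8, 37 pairs of tested miRNAs overlap by at least 15 bases on opposite strands, and 15 pairs were called in the same direction. Over all miRNAs 36.9% were higher and 19.6% lower, and how many unrelated pairs would share a direction was not computed. miR-3553 lies opposite miR-183-5p over 22 bases, at chr4:59756105-59756127, and miR-9b-3p opposite miR-9a-5p over 18 bases, at chr1:142849418-142849435, as a comparison with the sequences above shows.
miR-3553: cAGUGAAUucuaccagugccaua
miR-9b-3p: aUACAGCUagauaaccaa
miR-3553 was at 3.07% to 4.01% of miR-183-5p in all 12 libraries, and miR-9b-3p at 2.45% to 3.25% of miR-9a-5p. Their ratios in the choroid, 0.298 (0.289 to 0.307) and 0.314 (0.308 to 0.321), were near those of their partners. miR-203b-5p was likewise at 2.72% to 5.06% of miR-203a-3p, with a ratio of 3.81 (3.17 to 4.58). Of 17 pairs whose commoner member was at 1000 RPM or above, 12 had the rarer one at 1% to 6% of it in both choroid pools. How the counting used strand is not given in the sources used here, so such an entry and its partner cannot be told apart. The counts above include these entries. Without the rarer member of each pair, a choice made after the data were seen, 214 of 575 miRNAs were higher and 112 lower. Of 197 hairpins 72 minor arms were then higher and 28 lower, and of 32 groups of hairpins 3 were wholly higher, 1 wholly lower and 10 in both directions.

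The RNA classes differed as well. miRNA reads were 73.0% of all reads in CTL and 62.8% in OIR, and reads too short to place 13.1% and 23.7%, with 12.5% to 28.8% in the other choroids. tRNA reads were 0.753% (Wilson 95% interval 0.749% to 0.758%) and 1.22% (1.21% to 1.22%), mRNA reads 0.633% and 0.943%, and piRNA reads 0.145% and 0.147%. The tRNA and mRNA classes were therefore larger in OIR beside a smaller miRNA share, and the state of the RNA in the pools was not tested.

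tRNA UMIs per 1000000 miRNA UMIs stood at 10800 in CTL and 20003 in OIR, a ratio of 1.85 (1.84 to 1.87). The other choroids ranged from 32088 to 112697, and the P7 retina held 11083 in CTL and 9269 in OIR, so the CTL choroid was again at the level of its retina. Most of the difference came from 1 isoacceptor, the glycine tRNA with anticodon GCC, from which stable fragments are often cut. Its 14 entries went from 42897 to 113758 UMIs, a ratio of 2.94 (2.91 to 2.97), and from 38.0% to 60.2% of tRNA UMIs, and gave 86.4% of the rise. Per total reads its ratio was 2.52, and in the mixture with CTL retina 1.75 was left. Without it, all other tRNAs together had a ratio of 1.187 (1.175 to 1.1995), or 1.02 per total reads.

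Of 250 tested tRNA entries, 59 (23.6%) were higher and 30 (12%) lower. Scaled to total reads the split was 31 higher and 63 lower, so the direction of the smaller differences depends on the denominator. Among 41 isoacceptors 11 were higher and 4 lower, with selenocysteine tRNA at 1.67 (1.31 to 2.13) and glutamate tRNA with anticodon CTC at 0.695 (0.651 to 0.743). The glycine GCC entries were unequal, with ratios of 5.88 (5.71 to 6.05) for an entry on chromosome 3, from 5520 to 29281 UMIs, and 2.84 (2.796 to 2.88) for the commonest entry, on chromosome 13, from 23249 to 59569 UMIs. Copies of a tRNA gene can be identical in sequence, so the division of reads between entries is uncertain.

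**Figure D5:**
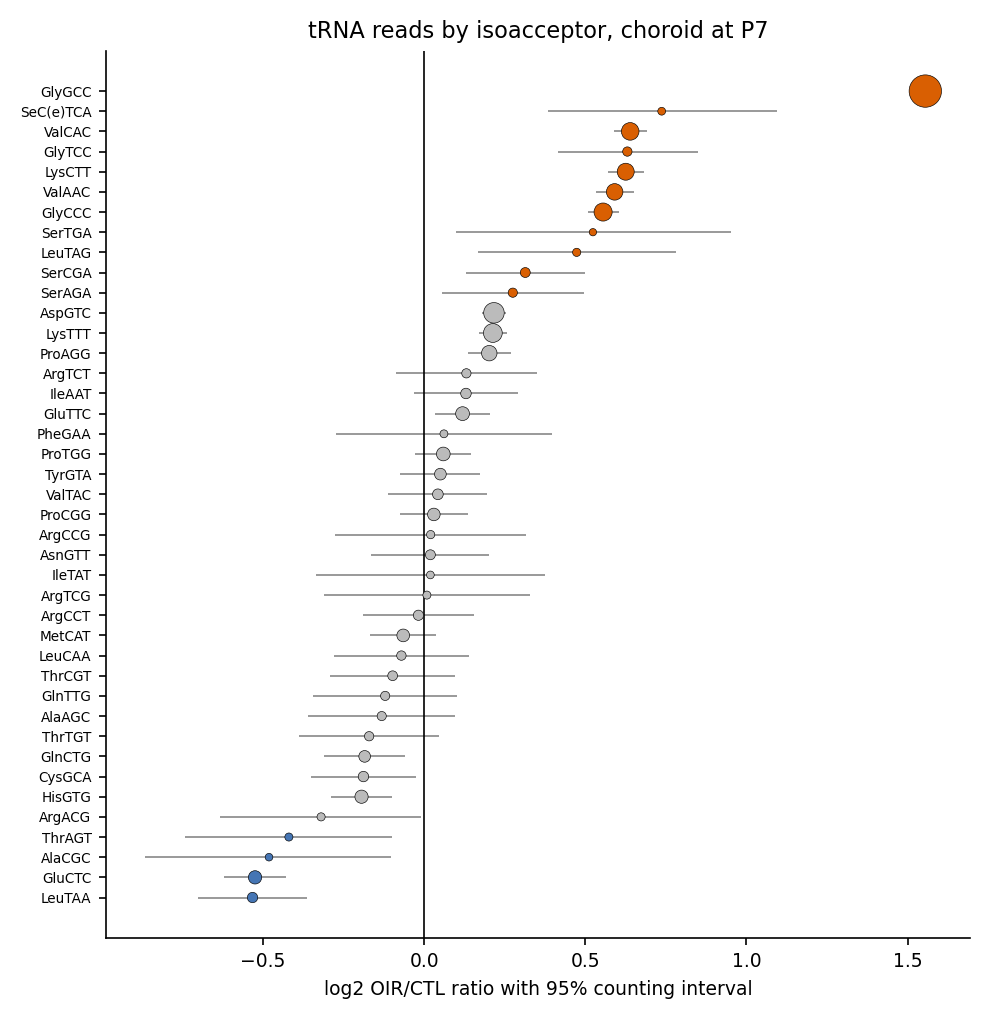
log2 OIR/CTL ratio of each tRNA isoacceptor in the choroid at P7 with its 95% counting interval, point area rising with the square root of UMIs, and colours for higher (orange), lower (blue) and neither (grey). Glycine GCC stands apart at a ratio of 2.94.

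Of 92 piRNAs listed, 68 were tested, with 24 (35.3%) higher and 9 (13.2%) lower, and together they went from 1949 to 2277 RPM. piRNAs guard the germ line, and outside it an entry of this class may be a fragment of another RNA. piR_000552 was highest, with 73 and 368 UMIs, a ratio of 5.58 (4.33 to 7.28). piR_005556 went from 21.1 to 114 RPM, a ratio of 5.404 (4.67 to 6.27), and was at 86.0 RPM in the CTL choroid at P14 and 13.2 RPM in the CTL retina. piR_005787 with 223 and 937 UMIs and piR_008174 with 113 and 442 UMIs followed, with ratios of 4.65 and 4.33. In the mixture piR_000552 came to 2.82 and piR_005556 to 2.62, so these stayed above 1.2. On the low side piR_010469 had 147 and 37 UMIs, a ratio of 0.279 (0.189 to 0.402), with 17.6 RPM in the CTL retina. The commonest piRNA, piR_005595, hardly differed, with 2737 and 2563 UMIs and a ratio of 1.04.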

How the data were processed

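Small RNA from pooled rat choroid and retina was sequenced, and the authors' deposited files give reads and UMIs as whole-number counts, not normalized, for each feature with at least 10 UMIs, and reads per RNA class. Per the labels and the submitters' processing notes, reads were made with bcl2fastq 2.20, trimmed with cutadapt and aligned by Bowtie to Rnor_6.0, with versions of the latter tools and the use of strand not given in the sources used here. As library kit, QIAseq miRNA is given in the labels but TruSeq Small RNA in the study's methods. 0 columns belonged to no sample. PCR copies are merged by UMI, and intervals and floors cover counting error only.

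UMIs were scaled per 1000000 miRNA UMIs. A feature not listed was set to 10 UMIs as a bound. Ratios were given with exact conditional (Clopper-Pearson) 95% intervals from 1 library per group, and shares with Wilson 95% intervals. Bands used the mean RPM of both libraries. Names cover the members of 16 lists (116 names, with miR-133a-3p and miR-133b-3p counted together), the 10 highest and 10 lowest ratios per band whose interval excluded 1, the 10 minor arms farthest from their major arm, all piRNAs, and the 5 highest and 5 lowest tRNA entries. Members and lists were chosen with earlier results of these data known. Minor arms were paired by name, clusters are RefSeq hairpins within 10000 bases (GRCr8), and names matched 677 of 750 entries. The code was tested on simulated data. Alternatives were reads, other denominators, edgeR 4.0.16 TMM and DESeq2 1.42.0 size factors in R 4.3.3, and other thresholds and retinal references. All other steps ran in Python 3.11.15 (pandas 2.3.3, numpy 2.4.6, matplotlib 3.10.9, scipy 1.17.1).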

Additional observations from a re-analysis of the deposited data

Results flagged for a closer look

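For 13 of the 16 lists the median log2 OIR/CTL ratio had opposite signs in the choroid and the retina at P7, with 1 library per group in each tissue, and the difference was not tested. The median was negative in the choroid and positive in the retina for the photoreceptor cluster at -1.39 and 0.35, the neuronal list at -1.09 and 0.14, and the miR-17 clusters at -0.39 and 0.26. The other 10 were positive in the choroid and negative in the retina. They were pigment epithelium at 0.49 and -0.58, endothelial at 0.89 and -2.02, mesenchymal and mural at 1.14 and -3.04, cartilage and sclera at 0.98 and -1.63, and striated muscle at 0.55 and -2.41. The same held for erythroid miRNAs at 1.98 and -0.75, leukocyte miRNAs at 1.11 and -2.04, surface epithelium at 1.86 and -1.93, the miR-29 family at 1.02 and -0.58, and the Dlk1-Dio3 list at 0.20 and -0.36. On total reads the Dlk1-Dio3 median in the choroid was -0.02. The CTL retina at P7, on which these retina ratios rest, had mesenchymal and mural, endothelial and striated muscle sums above those of every other retina. Its surface epithelium sum was within their range. Whether these differences came with oxygen or with the dissection of the pools was not tested.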

How the results depend on the processing

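Of the 174 named miRNAs, the 137 that were called kept their direction under the 5 changes of unit or denominator run on them. The denominators among these shifted every log2 ratio by at most -0.22, less than a call needs, so they could not reverse a call. The denominator outside the retinal lists, with a shift of -0.39, was not among the 5. It takes called miRNAs of small ratio, such as miR-204-5p at a log2 ratio of 0.29, below 0. Of the 37 not called, 16 changed sign under at least 1 of the 5. Counts of calls moved with the scale and the threshold. With a 2-fold threshold, higher and lower miRNAs were 15 and 13 at 1000 RPM and above, 17 and 16 from 100 to 1000 RPM, 12 and 15 from 10 to 100 RPM, and 37 and 8 under 10 RPM. By the same threshold minor arms were 28 and 12, lower piRNAs 2, and tRNA entries 17 and 3. With the whole interval past the threshold, the counts were 43 and 27 from 10 to 100 RPM, 39 and 8 under 10 RPM, 19 lower minor arms, 5 lower piRNAs, and 33 and 11 tRNA entries. Per total reads every log2 ratio shifted by -0.22, with 30 and 32 at 1000 RPM and above, 44 and 51 from 100 to 1000 RPM, 47 and 61 from 10 to 100 RPM, 42 and 32 under 10 RPM, 55 and 43 minor arms, 20 lower piRNAs, and 31 and 63 tRNA entries. TMM (shift -0.15) gave 32 and 29 at 1000 RPM and above, 50 and 56 from 10 to 100 RPM, 17 lower piRNAs and 51 lower tRNA entries. DESeq2 size factors (shift -0.16) gave 49 and 57 from 10 to 100 RPM, 31 lower under 10 RPM, 17 lower piRNAs, and 35 and 55 tRNA entries. The denominator outside the retinal lists, added after the data were seen, gave 24 and 41, 27 and 57, 34 and 83, and 27 and 44 from the highest to the lowest band, 40 and 63 minor arms, 26 lower piRNAs, and 22 and 93 tRNA entries. The added retinal share, 0.583, was 0.455 with the OIR retina as the reference (0.465 for members at least 2-fold apart, a choice added after the data were seen) and 0.684 per total reads. With the highest share over members 110 miRNAs were below 0.8 in the mixture, and with the OIR retina 77, in place of 36. The lowest share was below 0 and was not used, and the lowest above 0 was used in its place, a choice made after the data were seen. Leaving out the rarer antisense entries kept every count in the bands and of minor arms within 1.5 times. No paired analysis was possible because each group has 1 library, and none could be left out. Depth limited the lower bands most, and under 10 RPM the median interval was 1.08 times as wide as the ratio.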
